A study of Mus musculus with 3 samples.

Results

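The crypt base stem cell genes described here are 10 genes that mark the cycling stem cells at the bottom of intestinal crypts. They are Lgr5, Ascl2, Smoc2, Slc12a2, Olfm4, Gkn3, Aqp4, Tnfrsf19, Prom1 and Myb, taken by name from the 23271 genes of the merged count table. No threshold on a measured value set the choice, but earlier results of these data were known when it was made. All 10 were found in all 3 libraries, and all 10 had at least 20 UMIs (unique molecular identifiers, each the tag of 1 captured mRNA) in every pair of libraries.

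Crypt base stem cells sit between Paneth cells and renew the whole intestinal epithelium. Their state is known to depend on Wnt signaling, which R-spondin strengthens through the LGR receptors, and on Notch signaling, which keeps progenitors out of the secretory lineages. Of the 10 genes, Lgr5, Ascl2 and Tnfrsf19 are textbook Wnt target genes, while Olfm4 is known in the intestine as a gene that follows Notch activity.

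The data came from Seq-Well single-cell RNA sequencing, where cells settle with barcoded mRNA capture beads in an array of nanowells, with 1 array for each of 3 cultures of mouse small intestinal organoids. Crypts came from the proximal small intestine of C57BL/6 mice aged 3 to 6 months, and the organoids of all arrays derived from 1 donor and had been enriched for stem cells in ENR+CV medium. Cells from 6 wells were pooled per array at day 6. All media held EGF, Noggin and R-spondin 1 (ENR). The ENR cells received nothing further, after 6 days in ENR+CV. The ENR+CD cells, with the same history, received 3 µM CHIR99021, an inhibitor of GSK3 that activates Wnt signaling, and 10 µM DAPT, a gamma-secretase inhibitor that blocks Notch. The ENR+CV cells stayed in 3 µM CHIR99021 with 1 mM valproic acid, a histone deacetylase inhibitor. The effect of a medium and that of its array cannot be told apart, and because CHIR99021 never stood alone, its share in either mixture cannot be told apart from that of its partner. Wells and donor were not barcoded, so no spread between biological replicates could be had. Every interval below is a 95% interval that covers counting error only, and no test between conditions was possible.

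A cell was kept from 1000 up to but not including 8000 UMIs and with at least 400 genes. This left 2545 cells of ENR (5095089 UMIs in all), 2383 of ENR+CD (4538388 UMIs) and 985 of ENR+CV (2942252 UMIs). ENR+CV cells were deeper, with quartiles of 1431 and 4156 UMIs per cell, against 1216 and 2241 for ENR cells. The sample labels and the count tables went against each other for a pair of libraries. All 1092 merged cells named ENR+CV were found in the single-library table filed under the ENR+CD label, and all 2506 named ENR+CD in that filed under the ENR+CV label, so the cell names of the merged table were followed. Epcam, the epithelial adhesion molecule, stood at 1190 to 1690 CPM (UMIs of a gene per 1000000 UMIs of its library) in the 3 libraries, and of 4 measured immune marker genes 2 to 3 were found, at 2.72 to 2.86 CPM in sum. The 5 stroma and endothelium markers summed to 36.5 CPM in ENR (4 found), 67.9 CPM in ENR+CD (3 found) and 251 CPM in ENR+CV (5 found), with Col1a1 at 0 in ENR and ENR+CD, and the enteroendocrine list to 4599, 9341 and 249 CPM. ENR and ENR+CD shared 1 kept cell barcode and the other pairs shared none. Mitochondrial genes took 16.5%, 8.67% and 3.89% of the UMIs of ENR, ENR+CD and ENR+CV, and the Paneth cell antimicrobial genes took 4.27%, 19% and 0.609%. The part of these differences in the results on the stem cell genes was not tested beyond the values given beside them. Together the 10 stem cell genes took 0.231%, 0.126% and 0.258%.

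The 3 genes of surface receptors and membrane proteins followed 3 courses. Lgr5, the R-spondin receptor that defines crypt base columnar cells (GRCm38 chr10:115450311-115587780, minus strand), was counted 614, 381 and 414 times in ENR, ENR+CD and ENR+CV. Its level was 121 CPM (111 to 130) in ENR, 84.0 CPM (75.7 to 92.8) in ENR+CD and 141 CPM (127 to 155) in ENR+CV. The ENR+CD interval lay below the others, while those of ENR and ENR+CV overlapped. Tnfrsf19, also called TROY, a receptor of the tumor necrosis factor receptor family (chr14:60963875-61046490, minus strand), was counted only 33 times in ENR, at 6.48 CPM (4.46 to 9.10). It reached 68.1 CPM (60.7 to 76.1) in ENR+CD and 78.5 CPM (68.7 to 89.3) in ENR+CV, so it was low in the medium without CHIR99021 and overlapped between both media with it. Prom1, the membrane glycoprotein CD133 (chr5:43993620-44102032, minus strand), stood at 146 CPM (136 to 157) in ENR, 193 CPM (178 to 210.0) in ENR+CV and 307 CPM (291 to 324) in ENR+CD. It was the single gene of the 10 with its highest level in ENR+CD, and its 3 intervals did not overlap.

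The transport genes parted in ENR+CD. Slc12a2, the sodium, potassium and chloride cotransporter NKCC1 (chr18:57878678-57946821, plus strand), was at 538 CPM (518 to 559) in ENR, 384 CPM (366 to 403) in ENR+CD and 588 CPM (561 to 616) in ENR+CV, a narrow range. Aqp4, a water channel (chr18:15389496-15410982, minus strand), was at 119 CPM (110 to 129) in ENR and 128 CPM (116 to 142) in ENR+CV, which overlapped. In ENR+CD it was counted 22 times, at 4.85 CPM (3.04 to 7.34).

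Both transcription factors were lowest in ENR+CD. Ascl2, a basic helix-loop-helix factor required for stem cell identity (chr7:142966829-142969264, minus strand), was at 55.2 CPM (48.9 to 62.0) in ENR, 22 CPM (17.9 to 26.8) in ENR+CD and 62.9 CPM (54.1 to 72.6) in ENR+CV. Myb, a factor of proliferating crypt progenitors (chr10:21124935-21160984, minus strand), was at 113 CPM (104 to 123) in ENR, 24.0 CPM (19.7 to 29.0) in ENR+CD and 89.7 CPM (79.2 to 101) in ENR+CV. Ascl2 overlapped between ENR and ENR+CV, and Myb did not. An annotated antisense gene of Myb, Gm26577, held 9 UMIs in ENR and 0 in the other libraries, and the sources used here do not say whether counting used the strand.

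The 3 secreted proteins differed most from each other. Smoc2, a calcium-binding protein of the extracellular matrix (chr17:14279506-14404790, plus strand), was at 320 CPM (305 to 336) in ENR, 350 CPM (333 to 367) in ENR+CD and 1140.0 CPM (1102 to 1179) in ENR+CV. The ENR+CV interval stood apart from both others. Olfm4, the glycoprotein olfactomedin 4 (chr14:79984081-80023139, plus strand), had 4351 UMIs in ENR, against 12 in ENR+CD and 447 in ENR+CV. Its level was 854 CPM (829 to 880) in ENR, 2.64 CPM (1.37 to 4.62) in ENR+CD and 152 CPM (138 to 167) in ENR+CV. Gkn3, gastrokine 3 (chr6:87383256-87388935, minus strand), had 211, 54 and 21 UMIs, at 41.4 CPM (36.0 to 47.4) in ENR, 11.9 CPM (8.94 to 15.5) in ENR+CD and 7.14 CPM (4.42 to 10.9) in ENR+CV. These were the genes that were low under both mixtures. The intervals of Gkn3 in ENR+CD and ENR+CV overlapped, and those of Olfm4 did not overlap in any pair. A long non-coding RNA gene on the same strand as Olfm4, Gm6999, held 0 in ENR+CV, 1 UMI in ENR and 4 in ENR+CD.

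**Figure D1:**
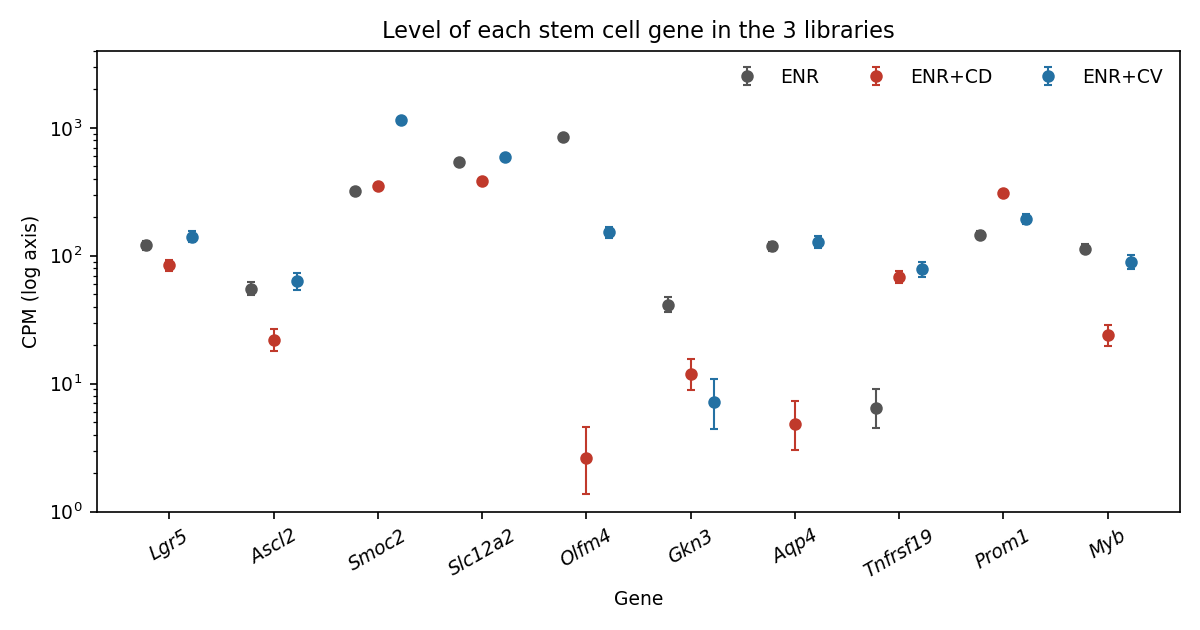
Level of each of the 10 genes (x axis) in CPM on a log axis (y axis), with 1 point per library and its exact Poisson 95% interval. Olfm4 and Aqp4 lie at 2.64 and 4.85 CPM in ENR+CD, Tnfrsf19 lies at 6.48 CPM in ENR and at 68.1 and 78.5 CPM in ENR+CD and ENR+CV, and Smoc2 stands at 1140.0 CPM in ENR+CV.

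The bases before the start sites of 4 genes are shown so that the genes that were low under both mixtures (Olfm4, Gkn3), the gene that was high under both (Tnfrsf19) and a gene low in ENR+CD alone (Myb) can be set side by side. Each is the 250 bases before a RefSeq start site in GRCm38.p6, written 5′ to 3′ on the strand of the gene. Capitals mark TGGGAA, the core of the site of RBPJ, the DNA-binding partner of Notch, and CTTTGA, the core of the site of the TCF/LEF factors of the Wnt pathway, or their reverse complements TTCCCA and TCAAAG.
Olfm4 (chr14:80000052-80000301, plus strand): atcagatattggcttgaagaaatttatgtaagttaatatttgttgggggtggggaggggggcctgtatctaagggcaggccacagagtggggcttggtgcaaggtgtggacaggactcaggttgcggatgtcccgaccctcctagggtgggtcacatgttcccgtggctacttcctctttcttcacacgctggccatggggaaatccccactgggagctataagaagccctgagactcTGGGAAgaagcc
Gkn3 (chr6:87388936-87389185, minus strand): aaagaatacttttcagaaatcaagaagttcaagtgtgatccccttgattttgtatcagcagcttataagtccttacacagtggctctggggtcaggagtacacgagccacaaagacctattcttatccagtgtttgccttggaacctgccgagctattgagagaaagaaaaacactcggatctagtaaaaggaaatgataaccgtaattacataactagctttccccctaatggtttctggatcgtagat
Tnfrsf19 (chr14:61037988-61038237, minus strand): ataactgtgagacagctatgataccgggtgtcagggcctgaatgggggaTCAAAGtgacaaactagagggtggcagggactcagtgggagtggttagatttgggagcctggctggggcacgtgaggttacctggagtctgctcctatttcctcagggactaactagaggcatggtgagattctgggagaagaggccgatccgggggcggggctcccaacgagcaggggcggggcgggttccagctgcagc
Myb (chr10:21160985-21161234, minus strand): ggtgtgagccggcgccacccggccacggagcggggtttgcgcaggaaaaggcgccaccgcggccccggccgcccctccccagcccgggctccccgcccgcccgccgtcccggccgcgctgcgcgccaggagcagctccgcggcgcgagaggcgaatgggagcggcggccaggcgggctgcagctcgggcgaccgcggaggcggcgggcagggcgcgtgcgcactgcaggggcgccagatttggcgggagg

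The table of promoters held 8 start sites of 6 of the 10 genes. The Olfm4 stretch held 1 TGGGAA, which began 12 bases before the start, and 54.0% of its bases were G or C. Of the other start sites, 1 of Prom1 also held TGGGAA, together 2 of 8 start sites against 21.6% of the 32851 start sites of all genes. The letters CTTTGA were found at 1 of 8 start sites, the Tnfrsf19 stretch shown (201 bases before the start, opposite strand), against 13.8% of all. Neither that start site nor the other Tnfrsf19 start site, which is not shown and held neither set of letters, opens a transcript of GENCODE vM21. Gkn3, Myb and Ascl2 (not shown) held neither set of letters. Gkn3 and Myb were the extremes of the 8 in the share of G or C, at 40.8% and 81.2%, against a median of 52.4% over all start sites. Myb also held the most CpG, 40, and Gkn3 held 5, against a median of 6. A match of letters is a description of the sequence and says nothing on binding.

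The comparison of ENR+CD with ENR asks how the genes stood when Wnt signaling was driven and Notch blocked. In ENR+CD, 2 of the 10 genes were called higher and 5 lower, and 3 were called neither. A call needed a change in CPM of 2-fold or more and Poisson intervals that did not meet. Of 12197 genes tested in the same way, 20.1% were called, 10.8% higher and 9.35% lower. The median log2 ratio over the 10 genes was -0.92, and over 8725 genes of at least 100 UMIs it was -0.05. Olfm4 showed the largest ratio of the 10, 323-fold lower in ENR+CD (185 to 626), a log2 ratio of -8.34. Aqp4 was 24.5-fold lower (16.1 to 39.4), Myb 4.72-fold (3.84 to 5.85), Gkn3 3.48-fold (2.57 to 4.78) and Ascl2 2.50-fold (1.99 to 3.18). Tnfrsf19 was 10.5-fold higher (7.33 to 15.5) and Prom1 2.1-fold higher (1.92 to 2.30), close to the threshold. Lgr5 was 1.44-fold lower (1.26 to 1.64), Slc12a2 1.40-fold lower (1.32 to 1.49) and Smoc2 1.09-fold higher (1.02 to 1.17), all under the 2-fold limit. In ENR+CD the Paneth cell antimicrobial genes took 19% of UMIs against 4.27% in ENR. The same 7 genes were called in the same directions when mitochondrial, ribosomal protein, structural RNA and Paneth genes were left out of the library totals. They were also called so among the cells of clusters that no marker list named, an alternative chosen after seeing the data. Those clusters were not free of Paneth transcripts. Paneth antimicrobial genes took 16.9% of the UMIs of ENR+CD cluster 2 and 4.78% of those of ENR+CD cluster 3, both unnamed.

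The comparison of ENR+CV with ENR asks which of the genes were kept in the stem cell enriched medium. In ENR+CV, 2 genes were called higher and 2 lower, and 6 were called neither, against 21.7% of 11962 genes called, 15.9% higher and 5.8% lower. Smoc2 was 3.56-fold higher (3.36 to 3.78) and Tnfrsf19 12.1-fold higher (8.39 to 18.0). Olfm4 was 5.62-fold lower (5.10 to 6.21) and Gkn3 5.80-fold lower (3.70 to 9.57), with log2 ratios of -2.49 and -2.54. The 6 others, Lgr5, Ascl2, Slc12a2, Aqp4, Prom1 and Myb, had log2 ratios between -0.34 (Myb) and 0.40 (Prom1). The median of 8411 genes lay at 0.34, and relative to it these 6 lay between -0.68 and 0.06, so the sign of Lgr5, Ascl2, Slc12a2 and Aqp4 depended on the scaling, while that of the 4 called genes did not. The median over the 10 genes was 0.16. Sorting the genes into kept and lost uses these same values and is a description only.

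Set against ENR+CV, the medium that also held CHIR99021, ENR+CD had 0 of the 10 genes called higher and 5 lower, with 5 called neither, against 26% of 12099 genes called, 7.1% higher and 18.9% lower. Olfm4 was 57.5-fold lower (32.6 to 112), Aqp4 26.4-fold (17.2 to 42.7), Myb 3.74-fold (2.98 to 4.71), Smoc2 3.26-fold (3.07 to 3.46) and Ascl2 2.85-fold (2.23 to 3.68). Tnfrsf19 was 1.15-fold lower in ENR+CD with an interval from 0.968 to 1.37 that held 1. Lgr5 was 1.68-fold lower (1.45 to 1.93) and Slc12a2 1.53-fold lower (1.43 to 1.64). Prom1 was 1.59-fold higher (1.44 to 1.76) and Gkn3 1.67-fold higher (0.990 to 2.91). The median log2 ratio over the 10 genes was -1.13, against -0.39 over 8287 genes, and with median-ratio scaling Prom1 and Gkn3 were called higher, at log2 ratios of 1.12 and 1.19. The 3 comparisons share libraries, so they are not independent of each other.

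**Figure D2:**
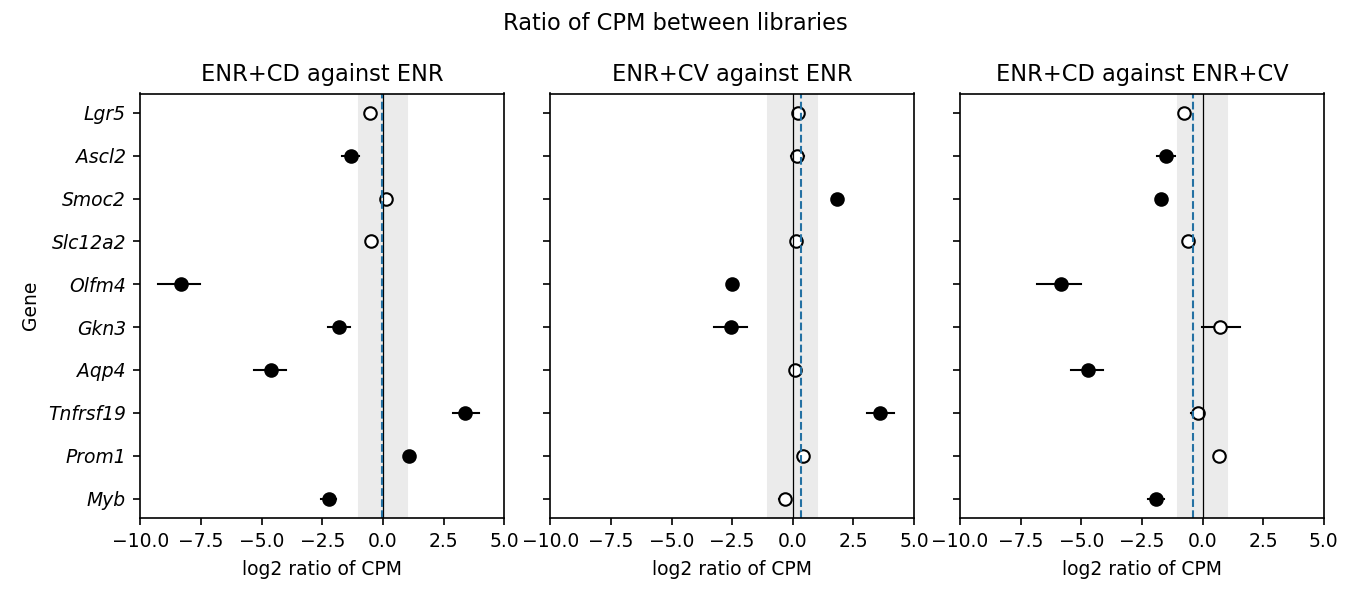
Log2 ratio of CPM between libraries (x axis) for the 10 genes (y axis) in the 3 comparisons, with exact binomial 95% intervals as lines. Filled points were called, the grey band marks less than 2-fold and the dashed line is the median over genes of at least 100 UMIs. Olfm4 is the point farthest left in the comparisons with ENR+CD, at -8.34 against ENR and -5.84 against ENR+CV, and Tnfrsf19 is the point farthest right in both comparisons with ENR, at 3.39 and 3.60.

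Levels summed over a library do not tell how many cells carried a transcript, so the cells were thinned to 1000 UMIs each. Of the thinned cells, 49.1% in ENR (47.1% to 51.0%) held an Olfm4 UMI, 0.126% in ENR+CD (0.0260% to 0.367%) and 9.95% in ENR+CV (8.15% to 12%). Without thinning, the shares were 62.4%, 0.210% and 18.3%. The Olfm4 share in ENR was also high in clusters named for differentiated cells. It was 47.2% (42.5% to 51.9%) in the enterocyte-like ENR cluster and 37.6% (27.8% to 48.3%) in the enteroendocrine-like ENR cluster, whose cells had medians of 1649 and 1445 UMIs before thinning. The share in ENR counts cells with a UMI and cannot be read as a share of expressing cells, which was not tested. In ENR+CV, Olfm4 was uneven, with 81.7% of its UMIs in the 98 cells that held most, and up to 15 in a cell. In ENR+CD, 8 of its 12 UMIs lay in 2 cells that clustered outside the ENR+CD clusters, and 5 cells in all held it.

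Lgr5 UMIs were found in 10.6% of thinned ENR cells (9.48% to 11.9%), 8.31% of ENR+CD cells (7.23% to 9.49%) and 14.2% of ENR+CV cells (12.1% to 16.6%), against 18.3%, 12.9% and 31.0% without thinning. The enteroendocrine-like ENR cluster gave 5.38% (1.77% to 12.1%), and the mixed enteroendocrine-like cluster 3.45% (0.0873% to 17.8%) of its 29 ENR cells and 1.09% (0.0275% to 5.91%) of its 92 ENR+CD cells. The enterocyte-like ENR cells gave 8.26% (5.91% to 11.2%). That last interval overlapped the share over all ENR cells, so at this depth the Lgr5 share of ENR cells cannot be read as a share of expressing cells. Of the Paneth-like ENR+CD clusters, cluster 1 held Lgr5 in 7.07% of 905 cells (5.49% to 8.94%), with Prom1 in 22.1% (19.4% to 24.9%) and Tnfrsf19 in 5.86% (4.42% to 7.59%). Cluster 4, where Paneth antimicrobial genes took 49.8% of the UMIs against 26.6% in cluster 1, held Lgr5 in 5.13% of 195 cells (2.49% to 9.23%), Prom1 in 14.4% (9.76% to 20.1%) and Tnfrsf19 in 1.54% (0.318% to 4.43%). Smoc2 UMIs were found in 60.4% of ENR+CV cells (57.3% to 63.5%), against 24.8% in ENR and 26.4% in ENR+CD. A cell that held Smoc2 in ENR+CV held 1.74 UMIs of it on average after thinning, against 1.22 in ENR. At a fixed depth the share and this average both rise with the mean level, so they are not separate measurements. Tnfrsf19 was found in 0.786% of ENR cells (0.481% to 1.21%), 5.50% of ENR+CD cells (4.62% to 6.49%) and 7.01% of ENR+CV cells (5.49% to 8.78%). Prom1 was found in 12.8%, 24.5% and 17.4% of cells.

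A thinned cell held a UMI of 1.65 of the 10 genes on average in ENR (SD over cells 1.16), 0.997 in ENR+CD (SD 0.912) and 1.73 in ENR+CV (SD 1.13). At least 3 of the genes were found in 21.9% of ENR cells, 6.17% of ENR+CD cells and 22.4% of ENR+CV cells, and no cell held more than 6. The averages of ENR and ENR+CV were close although the genes behind them differed, since Olfm4 was found in 49.1% of the former and Smoc2 in 60.4% of the latter.

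The genes met in the same cells only a little more often than their shares alone would give. For each of the 45 pairs, the cells with both genes were divided by the number expected from both shares, with pairs of under 5 expected cells left out. The median ratio was 1.12 over 37 pairs in ENR, 1.11 over 19 pairs in ENR+CD and 1.09 over 34 pairs in ENR+CV, and 29, 16 and 24 of these pairs lay above 1. In ENR, Ascl2 and Aqp4 met in 24 cells against 13.5 expected, a ratio of 1.78 (1.14 to 2.65), and Lgr5 and Gkn3 in 17 cells against 9.69, a ratio of 1.75 (1.02 to 2.81). Aqp4 and Myb met in 36 cells against 23.5, a ratio of 1.53 (1.07 to 2.12). In ENR+CV the pair of Ascl2 and Aqp4 met in 2 cells against 6.18 expected, a ratio of 0.324 (0.0392 to 1.17), the lowest of that library, with an interval that held 1. Lgr5 lay above 1 in 4 of its 8 pairs in ENR and in 7 of 8 in ENR+CV. Olfm4 lay above 1 in 9 of 9 pairs in ENR, between 1.02 and 1.23. These ratios describe cells of 1 array each, at few cells per pair. Pairs of other genes were not set beside them, so an excess of this size is not shown to be particular to these genes.

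**Figure D3:**
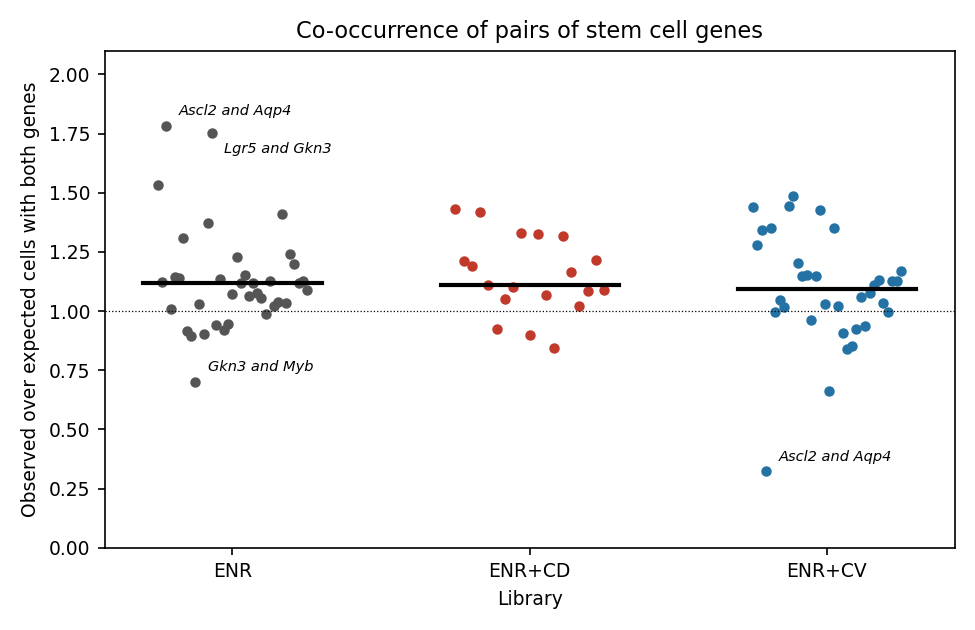
Cells with both genes of a pair over the number expected (y axis) in the 3 libraries (x axis), for pairs of at least 5 expected cells. Each point is a pair, black bars are the medians (1.12, 1.11 and 1.09) and the dotted line marks 1. The ENR points run from 0.702 to 1.78 and the ENR+CV points from 0.324 to 1.49.

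Clusters were made with the 10 genes left out, and gave 15 clusters of 69 to 932 cells, of which 14 had over 70% of their cells from 1 library and 1 mixed cluster of 137 cells did not. ENR cluster 4, with 264 cells that no marker list named, held the highest levels of Ascl2, Olfm4, Aqp4 and Myb. Ascl2, at 72.5 CPM (57.7 to 90.0), did not separate there from ENR+CV cluster 2, at 71.0 CPM (54.9 to 90.3). Nor did Aqp4, at 170 CPM (147 to 196) against 150 CPM (126 to 177). Olfm4 stood there at 1347 CPM (1281 to 1417), above ENR cluster 1 at 836 CPM (789 to 884), the enterocyte-like cluster at 692 CPM and ENR cluster 2 at 635 CPM. ENR cluster 2 was named goblet-like from 3 goblet markers among its 10 leading genes, but these also held Paneth cell defensin genes such as Defa26, and Paneth antimicrobial genes took 12.4% of its UMIs. The enteroendocrine-like ENR cluster still held 521 CPM (419 to 640). Myb in ENR cluster 4 was at 187 CPM (162 to 214), separate from the next, ENR+CV cluster 3, at 123 CPM (102 to 146). ENR cluster 4 was also the deepest ENR cluster, with a median of 4072.5 UMIs per cell, and its level of Lgr5 was 163 CPM (140 to 188). The highest Lgr5 level, 167 CPM (142 to 195) in ENR+CV cluster 2, did not separate from it.

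Each cluster in the order of Lgr5 levels overlapped with the next one. Its lowest level was 35.2 CPM (19.2 to 59.0) in the mixed enteroendocrine-like cluster. The 4 highest Smoc2 clusters were those of ENR+CV, from 633 CPM (557 to 716) to 1373 CPM (1299 to 1450), followed by ENR+CD cluster 3 at 550 CPM (507 to 597) and ENR cluster 4 at 450 CPM (412 to 491), and the ENR and ENR+CD clusters interleaved below them. Tnfrsf19 lay at 4.27 to 17.2 CPM in the 6 ENR clusters and at 30.2 to 96.4 CPM in the 9 others. The ENR levels rested on few UMIs. ENR clusters 5 and 6, with 3 and 2 UMIs, stood at 17.2 CPM (3.54 to 50.2) and 13.0 CPM (1.57 to 46.8). Both overlapped ENR+CD cluster 4, at 30.2 CPM (16.9 to 49.9). Prom1 was highest in ENR+CD cluster 3, at 437 CPM (398 to 479), a cluster of 558 cells led by Sbspon, Rdh10 and Ifitm1, and lay at 129 to 164 CPM in the ENR clusters. Aqp4 lay at 2.02 to 7.01 CPM in the 4 ENR+CD clusters and at 45.4 to 170 CPM in all ENR clusters. In the mixed cluster, where enteroendocrine-like cells of the 3 libraries lay side by side, Olfm4 was counted 26 times in 29 ENR cells, at 333 CPM (218 to 488), and 0 times in 92 ENR+CD and 16 ENR+CV cells. With 3 counts taken as the most that a count of 0 allows, 0 of the 92 thinned ENR+CD cells allows a share of cells with an Olfm4 UMI of up to 3.26%, and the upper Clopper-Pearson limit is 3.93%.

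**Figure D4:**
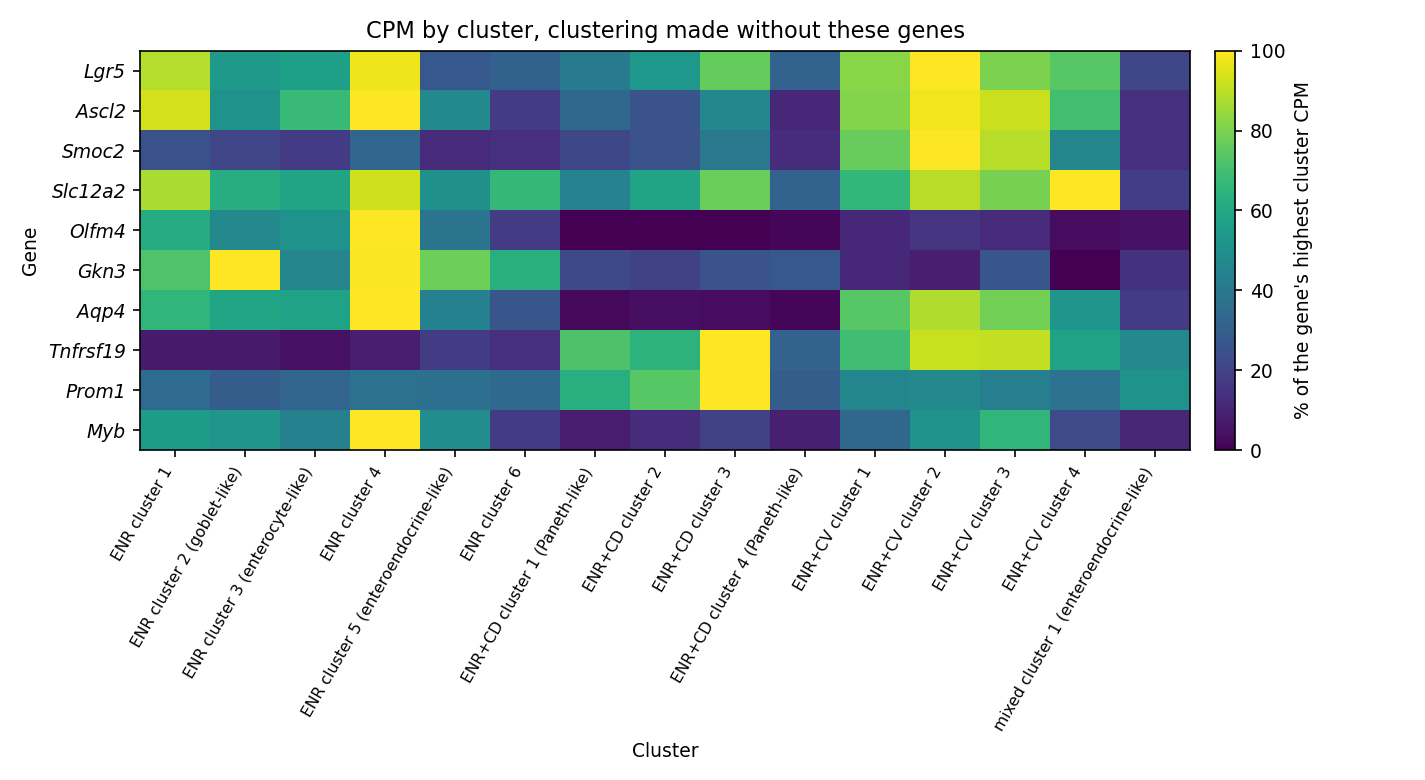
CPM of the 10 genes (rows) in 15 clusters (columns) as a percent of the highest cluster of each gene, from dark (0%) to yellow (100%). Tnfrsf19 is dark in all ENR clusters, Olfm4 and Aqp4 are dark in all ENR+CD clusters, and ENR cluster 4 is the yellow column of Ascl2, Olfm4, Aqp4 and Myb.

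Over the 15 clusters, the profiles of log2(CPM + 10) of Aqp4 and Myb were the most alike of the 45 pairs, with a Pearson r of 0.88, followed by Lgr5 and Ascl2 at 0.87 and Olfm4 and Aqp4 at 0.85. The least alike were Gkn3 and Tnfrsf19 at -0.81, and Olfm4 and Tnfrsf19 at -0.74. The clusters share libraries, so these values describe the pattern in the plot of levels by cluster and carry no p value. Among 7586 genes of at least 200 UMIs, the profile most like that of Olfm4 was that of Kcnn4, a calcium-activated potassium channel (r 0.97), followed by Gm8444 and Adck3 at 0.95 and Ccl25, a chemokine of the small intestine, and Gm10260 at 0.94. Within ENR, the ratios of thinned cells with Olfm4 to those without had intervals that held 1, at 0.853 (0.619 to 1.17) for Kcnn4 and 0.976 (0.870 to 1.10) for Ccl25. The profile most like that of Lgr5 was that of Pitrm1 (r 0.92), followed by Rrs1 at 0.92 and Lta4h and Tiam1 at 0.91, and Fzd7, a Wnt receptor, was the fifth at 0.90.

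Cells with an Olfm4 UMI were set against cells without in the libraries that held it. Among thinned ENR cells, 1249 held Olfm4 and 1296 did not, and the ratio of the other 9 genes lay between 1.02 and 1.64, with an interval above 1 for 5 of them. Aqp4 was at 140 CPM in the cells with Olfm4 and 85.6 CPM in those without, a ratio of 1.64 (1.28 to 2.09), and Ascl2, Myb, Smoc2 and Lgr5 had ratios of 1.48, 1.38, 1.34 and 1.27. Epcam stood at 1.13 (1.06 to 1.22), and the secretory genes Chga and Lyz1 were lower in the cells with Olfm4, at ratios of 0.441 (0.368 to 0.527) and 0.705 (0.669 to 0.743). In ENR+CV, 98 cells held Olfm4 and 887 did not, and the interval of 0 of the 9 genes lay off 1. Smoc2 was at 1204 CPM in cells with Olfm4 and 1033 CPM in those without, a ratio of 1.17 (0.954 to 1.41), and Lgr5 at a ratio of 1.08 (0.614 to 1.80). Cells with Olfm4 in ENR+CV had 3.07% mitochondrial UMIs and a median of 3177.5 UMIs before thinning, against 5.80% and 2419. Split by the mitochondrial share alone, the ENR+CV cells under 10% held 442 Olfm4 UMIs in 832 cells and those at 10% or more held 5 in 153, or 165 CPM against 19.5 CPM. In ENR the same split gave 1022 and 793 CPM.

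Cells with an Lgr5 UMI were set against the others in the same way, with 140 such cells in ENR+CV, 271 in ENR and 198 in ENR+CD. In ENR the gene with the largest ratio was Ghrl, the hormone ghrelin, at 937 CPM against 254 CPM, a ratio of 3.69 (3.17 to 4.28), but 225 of its 254 UMIs came from 1 cell. A Ghrl UMI was found in 7.38% of the cells with Lgr5 (4.57% to 11.2%) and 8.22% of those without (7.13% to 9.43%). Of the 1419 genes ranked in ENR, the next was Pgap2, at 2.50 (1.62 to 3.77), followed by Rnaset2b and Parl at 1.98. Ccna2, a cyclin of dividing cells, was the fifth, at 1.93 (1.36 to 2.70). Mki67 had ratios of 1.08 (0.871 to 1.33) in ENR, 1.26 (0.905 to 1.71) in ENR+CD and 0.754 (0.531 to 1.05) in ENR+CV. An interval of a gene picked for its large ratio does not allow for that picking. The leading genes were Fam120a in ENR+CD, at 1.83 (1.23 to 2.64), and Emc10 in ENR+CV, at 1.93 (1.23 to 2.93). Among the stem cell genes, intervals lay above 1 for Gkn3 in ENR, at 2.0 (1.16 to 3.28), Olfm4 in ENR, at 1.25 (1.09 to 1.42), and Smoc2 in ENR+CV, at 1.20 (1.01 to 1.41). Aqp4 had ratios of 0.911 in ENR (0.593 to 1.348) and 1.49 in ENR+CV (0.924 to 2.33), both with intervals that held 1. Lyz1 was at 300.0 CPM in ENR+CV cells with Lgr5 and 994 CPM in those without. It was uneven there, found in 19.2% of thinned ENR+CV cells with up to 84 UMIs in a cell. Chga, an enteroendocrine granule protein, was at 92.3 and 253 CPM in the ENR cells with and without Lgr5.

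Other genes of the same pathways were followed by list, and the counts of each list stand against the share of all genes called. In ENR+CD against ENR that share was 10.8% higher and 9.35% lower, in ENR+CV against ENR 15.9% and 5.8%, and in ENR+CD against ENR+CV 7.1% and 18.9%. Of 28 further stem cell genes, 27 were tested between ENR+CD and ENR, with 6 called higher and 2 lower, and 27 between ENR+CV and ENR, with 9 higher and 0 lower. Between ENR+CD and ENR+CV, 3 of 26 were called higher and 7 lower. Their median log2 ratios were 0.43, 0.79 and -0.52. The 4 most counted genes of each list are given as CPM in the order ENR, ENR+CD, ENR+CV. Hopx stood at 162, 243 and 336 CPM and was called higher in ENR+CV than in ENR. Ifitm3, an interferon-induced membrane protein, stood at 214, 798 and 447 CPM and was called higher in both media than in ENR. Jun, at 412, 602 and 808 CPM, and Pdgfa, at 205, 201 and 249 CPM, were not called in any comparison.

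Of 14 Wnt target genes tested, 5 were called higher and 1 lower in ENR+CD against ENR (10.8% and 9.35% of all genes). In ENR+CV against ENR, 6 were called higher and 0 lower (15.9% and 5.8% of all genes). Of 15 tested between ENR+CD and ENR+CV, 2 were called higher and 3 lower (7.1% and 18.9% of all genes). Axin2, Rnf43, Znrf3, Ephb2, Ephb3, Sox9 and Cd44 also stand among the further stem cell genes, so these lists are not independent. Axin2, a direct target of beta-catenin, stood at 119, 160 and 259 CPM in the same order of libraries, and was called higher in ENR+CV than in ENR. Rnf43, which limits Wnt receptors, stood at 64.8, 145 and 187 CPM and was called higher in both media than in ENR. Sox9, at 153, 227 and 217 CPM, was not called. Ccnd1, which encodes cyclin D1, stood at 150.1, 80.0 and 161 CPM and was called lower when ENR+CD was set against ENR+CV, while against ENR its ratio in ENR+CD was 0.533 and not called.

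Few Notch target genes could be tested, since only 3 of 8 measured genes had at least 20 UMIs in a pair. Hes1, a direct Notch target, was at 139 CPM (129 to 149) in ENR, 93.6 CPM (85.0 to 103) in ENR+CD and 652 CPM (623 to 682) in ENR+CV, where it was 4.70-fold higher than in ENR. In ENR+CV against ENR, Hes1 was thus called higher where Olfm4 was called lower. In ENR+CD against ENR, Hes1 had a ratio of 0.675 and was not called. When ENR+CD was set against ENR+CV, Hes1 was called lower, 6.96-fold (6.26 to 7.75), and so was Olfm4. Nrarp, another Notch target, stood at 11.8, 1.54 and 18.7 CPM in ENR, ENR+CD and ENR+CV, and was called lower in ENR+CD than in either other library. The receptor gene Notch1, at 29.2, 16.1 and 31.9 CPM, was not called. Notch3, another receptor gene, at 0.981, 0.441 and 2.04 CPM, had 5, 2 and 6 UMIs and could not be tested. Of 7 genes of Notch ligands and secretory fate tested, 2 were called higher and 1 lower in ENR+CD against ENR. Over all genes these shares were 10.8% and 9.35%. In ENR+CV against ENR, 0 of the 7 were called higher and 2 lower, where the shares were 15.9% and 5.8%. Between ENR+CD and ENR+CV, 4 of 6 tested were called higher and 0 lower, where the shares were 7.1% and 18.9%. Neurog3, the factor of enteroendocrine progenitors, stood at 19.2, 97.2 and 29.2 CPM, and Spdef, a factor of goblet and Paneth cells, at 15.7, 27.8 and 3.06 CPM. The ligand genes Dll1 and Dll4 stood at 23.2, 13.9 and 18.7 CPM and at 8.05, 18.9 and 8.50 CPM.

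Of the 27 genes of proliferation, 12 were called lower in ENR+CD than in ENR and 0 higher, against 9.35% and 10.8% of all genes. In ENR+CV, 1 was called higher and 0 lower than in ENR, against 15.9% and 5.8% of all genes. Set against ENR+CV, ENR+CD had 15 of the 27 called lower and 0 higher, against 18.9% and 7.1% of all genes. Mki67, a marker of cycling cells, stood at 384, 174 and 366 CPM in ENR, ENR+CD and ENR+CV, and Top2a, a topoisomerase of dividing cells, at 372, 182 and 479.6 CPM, and both were called lower in ENR+CD than in ENR. Hmgb2, at 626, 362 and 559 CPM, and H2afz, at 259.9, 217 and 288 CPM, were not called. Of the 10 genes listed for regenerative and fetal epithelium, 8 of 9 tested were called higher under ENR+CD than under ENR, against 10.8% of all genes. Under ENR+CV, 4 of 7 were called lower and 1 higher than in ENR, against 5.8% and 15.9%. Between ENR+CD and ENR+CV, 9 of 9 tested were called higher, against 7.1%. Clu, clusterin, stood at 11.6, 610.3 and 3.06 CPM in the same order, Ly6e at 93.2, 361 and 129 CPM, Anxa1 at 17.3, 174 and 11.2 CPM and Ly6a at 26.7, 107 and 3.74 CPM.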

How the data were processed

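Seq-Well libraries of 3 organoid cultures were analysed, 1 array per condition, with groups taken from the sample labels. Per the study's methods and the submitters' notes, the authors demultiplexed with bcl2fastq, aligned reads to mm10 with STAR in a Drop-seq pipeline and collapsed them by UMI, and the deposited tables give unnormalized counts of UMIs, and in further tables of reads, per gene and barcode. Not given in the sources used here were versions, annotation and strand setting. For all values but reads the merged UMI table was used, with 0 columns of unmapped samples. Cells of 1000 to under 8000 UMIs with at least 400 genes were kept. The study states 1 cell fewer for ENR and for ENR+CD. No doublet caller was run, so doublets stayed in.

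Counts were summed per library or cluster and scaled to CPM. CPM have exact Poisson, ratios exact binomial and shares of cells Clopper-Pearson 95% intervals, which cover counting error only. A gene was called at a 2-fold difference with separate intervals and 20 or more UMIs over both libraries, over all genes, with no p value, since each condition has 1 library. Cells were thinned to 1000 UMIs (seed 7) for shares and pairs. Clusters came from Seurat 5.3.0 in R 4.3.3 (log-normalization, 12 principal components, 30 neighbours, resolution 1.35) on 1665 variable genes without the 10 genes, and took a name where at least 3 of its markers were among the 10 leading genes. The fractions of UMIs, sums and figures used Python 3.11.15, NumPy 2.4.6, SciPy 1.17.1, pandas 2.3.3 and matplotlib 3.10.9, and the call rule, thinning and pair ratio were tested on simulated data. Gene positions are from GENCODE vM21 and bases before start sites from RefSeq (GRCm38.p6, the same sequence as mm10).

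Named genes were all 10 stem cell genes, the 4 genes of each list with most UMIs, the 8 genes with the largest ratio in cells with Lgr5 (at least 30 UMIs), of which some are given, the 5 genes with profiles most like Olfm4 and Lgr5, and reference genes. The 10 genes, the lists and the tests were chosen with earlier results of these data known. Alternatives changed the cells, the scaling, the thresholds, the thinning and the clustering.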

Additional observations from a re-analysis of the deposited data

Results flagged for a closer look

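The barcodes with fewer than 1000 UMIs enter none of the comparisons, and hold 2191154 UMIs in ENR, against 2957639 in ENR+CD and 1132719 in ENR+CV. In them, 2 of the 10 genes, Smoc2 and Tnfrsf19, stood at least 2-fold above the level in ENR, with separate Poisson intervals. Both also did so in the kept cells. The share of all genes that did so in the low barcodes was not computed. Prom1, called higher in ENR+CD in the kept cells, stood under 2-fold here, at 288 CPM (269 to 308) against 149 CPM (133 to 166) in ENR. Smoc2 was at 896 CPM (842 to 953) in the low barcodes of ENR+CV against 299 CPM (277 to 323) in those of ENR. Tnfrsf19 was at 76.4 CPM (66.8 to 87.1) in the low barcodes of ENR+CD and 77.7 CPM (62.3 to 95.7) in those of ENR+CV, against 7.76 CPM (4.52 to 12.4) in those of ENR. Olfm4 in the low barcodes was at 99.8 CPM in ENR+CV, 750 CPM in ENR and 2.37 CPM in ENR+CD. Reads per UMI of Olfm4 in the kept cells of ENR, ENR+CD and ENR+CV were 18.9, 19.1 and 13.9, against 15.3, 18.3 and 10.2 over all genes of the kept cells.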

How the results depend on the processing

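No paired analysis was possible because each condition has 1 library. The alternatives chosen beforehand and those added after seeing the data gave 350 log2 ratios of single genes, of which 339 kept their side of the call, 3 were no longer called, 8 became called and 0 of the called ones changed sign. With a fold of 1.5, 8 genes were called in ENR+CD against ENR+CV (1 higher, 7 lower) in place of 5, the rise following from the lower limit. Median-ratio scaling called 7 genes there (Gkn3 and Prom1 added). Over all genes, this scaling moved the share of calls that were higher from 73.2% to 46.6% in ENR+CV against ENR and from 27.3% to 58.0% in ENR+CD against ENR+CV. The genes found per cell rise with depth by construction. Not thinned, a cell of ENR held 2.47 genes, of ENR+CD 1.52 and of ENR+CV 3.17, and thinned to 1500 UMIs 2.21, 1.33 and 2.29. The median pair ratio was 1.28 in ENR and 1.24 in ENR+CV without thinning. The number of genes highest in an ENR cluster was 5, and 5 to 6 under the other clusterings, but at a resolution of 0.8 Lgr5 was highest in an ENR cluster. Without the ENR+CV cluster led by small nuclear RNA genes (an alternative chosen after seeing the data), the same 4 and 5 genes were called. Depth limits Gkn3 in ENR+CV (21 UMIs), Aqp4 (22) and Olfm4 (12) in ENR+CD and Tnfrsf19 in ENR (33), whose ratios have the widest intervals, and 11 pairs in ENR+CV, 8 in ENR and 26 in ENR+CD fell under 5 expected cells.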

Other observations

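Read counts gave a view of the 10 genes that the UMI levels do not show. In the kept cells, Gkn3 of ENR had 26.3 reads per UMI, of ENR+CD 36.3 and of ENR+CV 15.7, and Smoc2 had 23.4, 32.8 and 19, each above the 15.3, 18.3 and 10.2 of all genes. Myb was below the average in ENR, at 15 reads per UMI. Each Gkn3, Aqp4 and Olfm4 UMI of ENR+CD therefore rested on 19.1 to 36.3 reads on average.

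The UMIs of the rarer genes were spread over single cells. The 33 Tnfrsf19 UMIs of ENR came from 32 cells, with at most 2 in a cell, and the 21 Gkn3 UMIs of ENR+CV from 16 cells, with at most 4. The 54 Gkn3 UMIs of ENR+CD came from 42 cells. In ENR+CV, Smoc2 had the lowest share of its UMIs in the 98 cells that held most, at 34.6%. It also had the most UMIs of the 10 genes there, 3354. Since this share falls as the count rises, it does not measure evenness apart from the level.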
